A study of Mus musculus with 18 samples.

Results

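The 8 genes Slc12a1, Umod, Kcnj1, Bsnd, Slc12a3, Wnk1, Wnk4 and Stk39, which act in salt reabsorption by the loop of Henle and the distal tubule, were described in kidneys of male mice exposed to chronic social defeat stress with or without fluoxetine, a selective serotonin reuptake inhibitor. They were listed by gene symbol with no threshold on a measured value, though with earlier results of these data known, and are 8 of the 32675 genes in the deposited table. Wild type C57BL/6 males, 6 weeks old, formed 3 groups of 6 mice. Ctrl mice were not defeated, and the study describes daily handling but no injection for them. In comparisons with Ctrl, defeat and daily injection therefore cannot be told apart. PBS mice were defeated by CD-1 aggressors for 10 min a day over 14 days and received phosphate-buffered saline daily. FLX mice were defeated in the same way and received fluoxetine at 10 mg per kg daily. There was no group given fluoxetine without defeat, so an effect of the drug apart from stress was not measured. Poly(A) RNA of the right kidney was sequenced in bulk, and each library is 1 mouse.

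Cells of the thick ascending limb take up sodium, potassium and chloride from the tubule fluid through the cotransporter NKCC2, encoded by Slc12a1, the target of loop diuretics. The potassium channel ROMK (Kcnj1) returns potassium to the fluid, and barttin (Bsnd) is a subunit needed for exit of chloride to the blood side. The same cells secrete uromodulin (Umod), the most abundant protein of normal urine. In the distal convoluted tubule sodium and chloride enter through NCC (Slc12a3), the target of thiazide diuretics. The kinases WNK1 and WNK4 act on SPAK (Stk39), which phosphorylates and activates NKCC2 and NCC. Transport activity is set largely by phosphorylation, which RNA levels do not measure.

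By edgeR 0 of the 8 genes differed between groups at an adjusted p under 0.05 in the 17 mice of the main comparison. Of all genes 3.81% passed in PBS versus Ctrl. The lowest adjusted p-values by edgeR in that comparison were 0.114 for Wnk1 (log2 fold change 0.40) and 0.232 for Bsnd (-0.32). In FLX versus Ctrl the lowest was 0.208, again for Wnk1 (log2 fold change 0.29). DESeq2 on the same mice called Wnk1 higher in PBS versus Ctrl (adjusted p = 0.0466), beside 6.98% of all genes. Without 1 Ctrl mouse, replicate 3, Wnk1 and Wnk4 passed by edgeR as higher in both stressed groups, where 8.27% of all genes passed in PBS and 15.4% in FLX versus Ctrl. That mouse had the highest Ctrl level of both genes, so leaving it out raises these differences. With any other 1 of the 17 mice left out, 0 of the 8 passed. One PBS mouse was deleted in the study and was not named there. Replicate 6 was taken as that mouse because its levels stood apart here, so fold changes below leave it out unless all 6 PBS mice are named. In bulk tissue, fewer cells of a type and less RNA per cell cannot be told apart.

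All 8 genes were measured in all 18 mice, with at least 1307 estimated counts (Stk39 in FLX replicate 5) in a library. Total counts were 72149987 to 79061296 in 14 mice and 48928823 to 52073640 in FLX replicates 3 to 6. Summed levels of 8 proximal tubule markers were 1370 to 1769 FPKM in Ctrl and 1424 to 1648 in FLX mice, and 778.9 to 1607 in PBS mice, where the lowest was replicate 6. Levels are FPKM, fragments per kilobase of gene length scaled to library size. In a screen of 20251 genes for a mouse far from the other mice of its group, Ctrl replicate 3 stood out in 12.6% of genes and PBS replicate 6 in 7.04%, against 0.435% to 3.31% in the other mice.

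**Figure D1:**
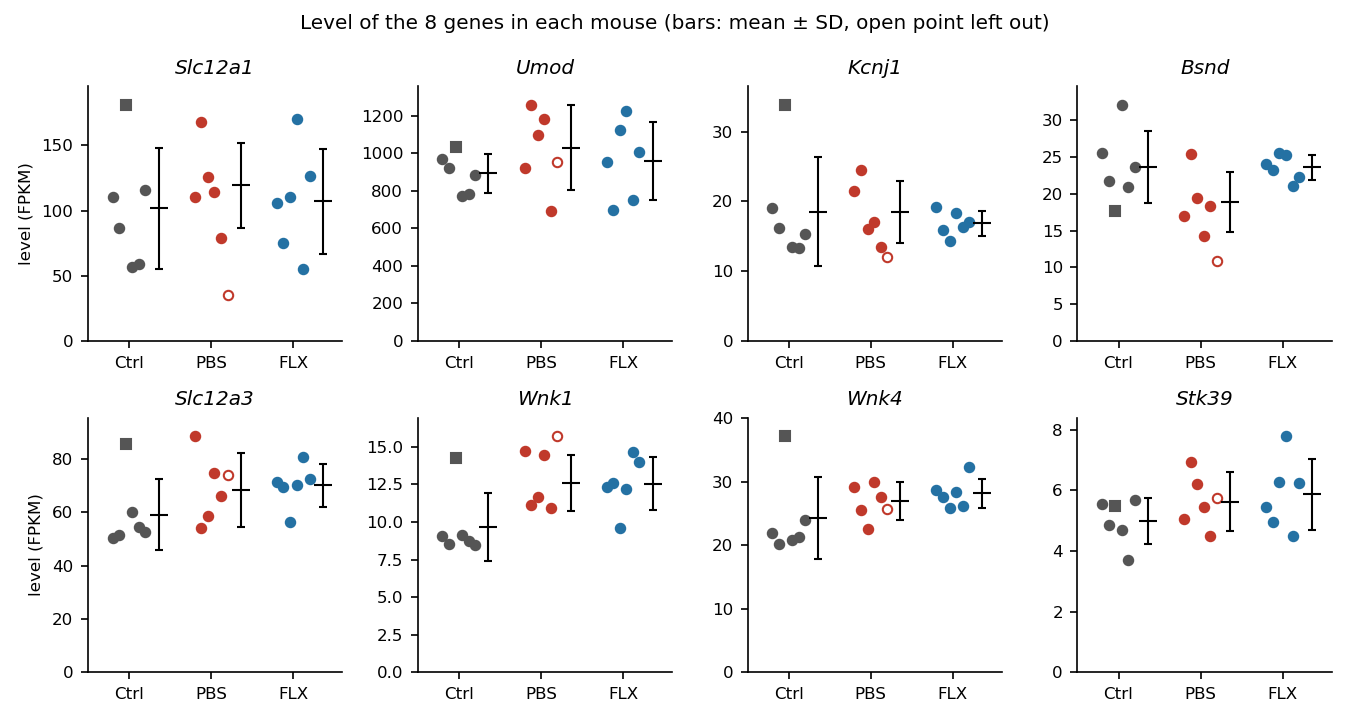
Level (FPKM, y axis) of each of the 8 genes in each mouse of the Ctrl, PBS and FLX groups. Each point is 1 mouse, the square is Ctrl replicate 3, the open circle is PBS replicate 6, and bars give the mean and SD without the open circle. The square is the highest Ctrl point for Slc12a1, Umod, Kcnj1, Slc12a3, Wnk1 and Wnk4, and the open circle is the lowest of the 18 points for Slc12a1, Kcnj1 and Bsnd.

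The order of the genes by level depended on the length used. By mean FPKM in Ctrl mice Umod came first at 894.9 ± 103.4 (SD, n = 6), followed by Slc12a1 at 101.6 ± 46.1 and Slc12a3 at 59.1 ± 13.4. Wnk4 at 24.2 ± 6.44, Bsnd at 23.7 ± 4.93 and Kcnj1 at 18.5 ± 7.78 did not differ beyond their spread, and Wnk1 at 9.69 ± 2.26 and Stk39 at 5.00 ± 0.75 were lowest. At the median over mice, CPM divided by deposited FPKM gave an implied length 1.16 times all annotated exon sequence of a gene. That ratio differed slightly between mice, so it is not a gene length alone. The implied length was 12.933 kb for Slc12a3, against 4.31 kb for its longest transcript. Its exons cover 11.119 kb, and 4 of 7 annotated transcripts retain introns. CPM per kb of the longest transcript were 177.6 ± 39.2 for Slc12a3 and 143.7 ± 64.5 for Slc12a1 in Ctrl mice, which turned the order of the means of both cotransporters. On that scale Wnk4 at 28.4 ± 7.40, Bsnd at 27.6 ± 5.79, Kcnj1 at 23.3 ± 9.63 and Wnk1 at 22.7 ± 5.14 did not differ beyond their spread. The factor of 1.16 is the same for the 8 genes and does not bear on their order. Fold changes of a gene between mice were not touched by this choice, since the length is the same in every mouse.

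The promoters of Slc12a1 and Umod are shown because both genes are transcribed in the thick ascending limb and their levels were correlated across mice. Sequences are from RefSeq on GRCm38.p6, from 250 bases before to 50 bases after the start that RefSeq gives, and 7 of the 8 genes matched the table. Bsnd is named only. For Kcnj1 that start lies 21.5 kb inside the gene as the deposited table places it, so its window is not at that gene start. For Stk39 it lies 287 bases inside, so that window is also wholly within the gene. The Slc12a1 window is chr2:125152350-125152649 on the + strand, and the Umod window is chr7:119479213-119479512 on the - strand, both 5′ to 3′ of the gene. Neither window holds any of the motifs searched, so no letters are in capitals.
Slc12a1: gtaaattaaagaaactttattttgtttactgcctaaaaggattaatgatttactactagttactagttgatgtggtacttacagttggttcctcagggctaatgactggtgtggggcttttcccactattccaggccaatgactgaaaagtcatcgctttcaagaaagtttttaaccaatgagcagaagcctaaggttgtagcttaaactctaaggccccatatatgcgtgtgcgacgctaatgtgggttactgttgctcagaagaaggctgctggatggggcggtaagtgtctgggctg
Umod: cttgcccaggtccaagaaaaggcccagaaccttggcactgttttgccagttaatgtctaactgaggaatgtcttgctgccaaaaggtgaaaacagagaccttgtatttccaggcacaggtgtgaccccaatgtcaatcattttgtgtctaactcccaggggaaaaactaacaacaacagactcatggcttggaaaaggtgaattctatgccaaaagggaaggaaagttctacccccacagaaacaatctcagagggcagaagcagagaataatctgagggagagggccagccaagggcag
The motifs were searched on both strands. AGAACA, a half-site of the glucocorticoid response element, was found in that inner window of Kcnj1 alone and in 19.0% of all promoters. CACGTG, the E-box bound by circadian clock factors, was found in none of the 7 and in 7.15% of all. The median GC content over all promoters was 52.7%, against 42.7% for Slc12a1 and 47.3% for Umod.

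Slc12a1 was the most variable of the 8 genes within groups. Its level ran from 56.9 through a median of 98.4 to 181.1 FPKM in Ctrl mice, and from 54.8 through 108.1 to 170.3 FPKM in FLX mice. The 5 PBS mice had 110.2, 168.2, 126.1, 113.9 and 78.6 FPKM, and PBS replicate 6 had 35.5 FPKM, the lowest level of any mouse. The groups overlapped almost wholly. The log2 fold change of PBS versus Ctrl was 0.26 ± 0.28 (SE) with an adjusted p of 0.702 by edgeR's quasi-likelihood test with Benjamini-Hochberg adjustment, and it was 0.07 with all 6 PBS mice. For FLX versus PBS the log2 fold change was -0.26, with a 95% interval from -0.85 to 0.33, the widest of the 8 genes in that comparison.

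Umod, at the highest level of the 8, ran from 775.5 through 903.6 to 1037 FPKM in Ctrl and from 697.1 through 982.0 to 1227 FPKM in FLX mice. PBS mice had 920.0, 1259, 1097, 1184 and 694.7 FPKM, and replicate 6 had 954.6 FPKM. Here 3 of the PBS mice lay above all Ctrl mice and 1 lay below them. PBS and Ctrl mice differed by a log2 fold change of 0.22 ± 0.16 (SE, edgeR adjusted p = 0.508), and that of FLX versus PBS was -0.20 (edgeR adjusted p = 0.714).

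Kcnj1 ran from 13.3 through 15.7 to 33.8 FPKM in Ctrl and from 14.3 through 16.7 to 19.3 FPKM in FLX mice. PBS mice had 21.4, 24.5, 16.0, 17.1 and 13.4 FPKM, with 11.97 FPKM in replicate 6. The highest Ctrl level was that of replicate 3, and the other 5 Ctrl mice lay between 13.3 and 19.0 FPKM. The log2 fold change of PBS versus Ctrl was 0.02 ± 0.20 (SE, edgeR adjusted p = 0.972) and became 0.25 without Ctrl replicate 3 and -0.07 with all 6 PBS mice, neither with an adjusted p under 0.05.

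Bsnd was the only one of the 8 genes with a lower mean in PBS than in Ctrl mice in the 17-mouse fit. It ran from 17.7 through 22.7 to 32.1 FPKM in Ctrl and from 21.1 through 23.7 to 25.6 FPKM in FLX mice. PBS mice had 16.95, 25.4, 19.5, 14.3 and 18.4 FPKM, and replicate 6 had 10.9 FPKM. Thus 4 of the 5 PBS mice were below every FLX mouse, and the Ctrl mouse with the lowest level was replicate 3. The log2 fold change of PBS versus Ctrl was -0.32 ± 0.14 (SE), with an unadjusted p of 0.034 and an adjusted p of 0.232 by edgeR, and with all 6 PBS mice it was -0.43 with an adjusted p of 0.141. Without Ctrl replicate 3 the fold change was -0.40 (edgeR adjusted p = 0.0607). For FLX versus PBS the log2 fold change was 0.23 ± 0.14 (SE, edgeR adjusted p = 0.60). On log2(FPKM + 0.1) the same contrast gave a difference of 0.34 with an unadjusted two-sided exact permutation p of 0.0346 with 5 PBS mice, and 0.47 with p = 0.0173 (exact) with all 6. These are 2 of the exact tests of 8 genes in 3 comparisons, and the FPKM scale itself placed the median gene 0.08 higher (log2) in FLX than in PBS mice.

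Slc12a3, which encodes the cotransporter of the distal convoluted tubule, was steadier than Slc12a1. It ran from 50.3 through 53.7 to 85.5 FPKM in Ctrl and from 56.2 through 70.7 to 80.5 FPKM in FLX mice. PBS mice had 88.4, 54.0, 58.5, 74.8 and 66.1 FPKM, and replicate 6 had 74.0 FPKM. Ctrl replicate 3 held the highest Ctrl level, and the other 5 Ctrl mice lay between 50.3 and 60.1 FPKM. The mean was higher in PBS than in Ctrl mice by a log2 fold change of 0.23 ± 0.14 (SE, edgeR adjusted p = 0.426), and without Ctrl replicate 3 it was 0.34 (95% interval from 0.084 to 0.60) with an adjusted p of 0.0902. FLX and PBS mice differed by -0.06 (log2, 95% interval from -0.36 to 0.23, edgeR adjusted p = 0.927).

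Wnk1 had the lowest p of the 8 genes. Its level ran from 8.43 through 8.91 to 14.3 FPKM in Ctrl and from 9.58 through 12.5 to 14.6 FPKM in FLX mice. PBS mice had 14.7, 11.1, 11.7, 14.4 and 10.9 FPKM, and replicate 6 had 15.7 FPKM, the highest level of any mouse. The other 5 Ctrl mice lay between 8.43 and 9.10 FPKM, below every PBS and every FLX mouse, while Ctrl replicate 3 had 14.3 FPKM and lay within both stressed groups. The log2 fold change of PBS versus Ctrl was 0.40 ± 0.13 (SE), with an unadjusted p of 0.00859 and an adjusted p of 0.114 by edgeR. With DESeq2 in place of edgeR, which called 6.98% of all genes in this comparison, the adjusted p was 0.0466. With all 6 PBS mice the log2 fold change was 0.44 (edgeR adjusted p = 0.0663). Without Ctrl replicate 3 it was 0.52 ± 0.11 (SE, edgeR adjusted p = 0.0117) for PBS and 0.42 ± 0.11 (SE, edgeR adjusted p = 0.0156) for FLX versus Ctrl. FLX and PBS mice differed by -0.10 (log2, 95% interval from -0.39 to 0.18). The kidney makes a short WNK1 that lacks the kinase domain beside the full-length form, and the counts per gene do not separate them.

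Wnk4 ran from 20.3 through 21.6 to 37.1 FPKM in Ctrl and from 25.8 through 28.0 to 32.3 FPKM in FLX mice. PBS mice had 29.2, 25.6, 22.6, 29.9 and 27.5 FPKM, and replicate 6 had 25.6 FPKM. Ctrl replicate 3 was the highest of all 18 mice, and every FLX mouse was above the other 5 Ctrl mice, which reached 24.0 FPKM. The log2 fold change of PBS versus Ctrl was 0.17 ± 0.13 (SE, edgeR adjusted p = 0.516), and that of FLX versus Ctrl was 0.14 ± 0.12 (SE, edgeR adjusted p = 0.557). Without Ctrl replicate 3 these became 0.31 (edgeR adjusted p = 0.0354) and 0.28 (edgeR adjusted p = 0.0308).

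Stk39, which encodes SPAK, the kinase that carries the WNK signal to both cotransporters, had the lowest level. It ran from 3.70 through 5.18 to 5.70 FPKM in Ctrl and from 4.49 through 5.86 to 7.78 FPKM in FLX mice. PBS mice had 5.06, 6.95, 6.21, 5.47 and 4.502 FPKM, and replicate 6 had 5.75 FPKM. The groups overlapped, and the log2 fold change of PBS versus Ctrl was 0.18 ± 0.13 (SE, edgeR adjusted p = 0.517).

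**Figure D2:**
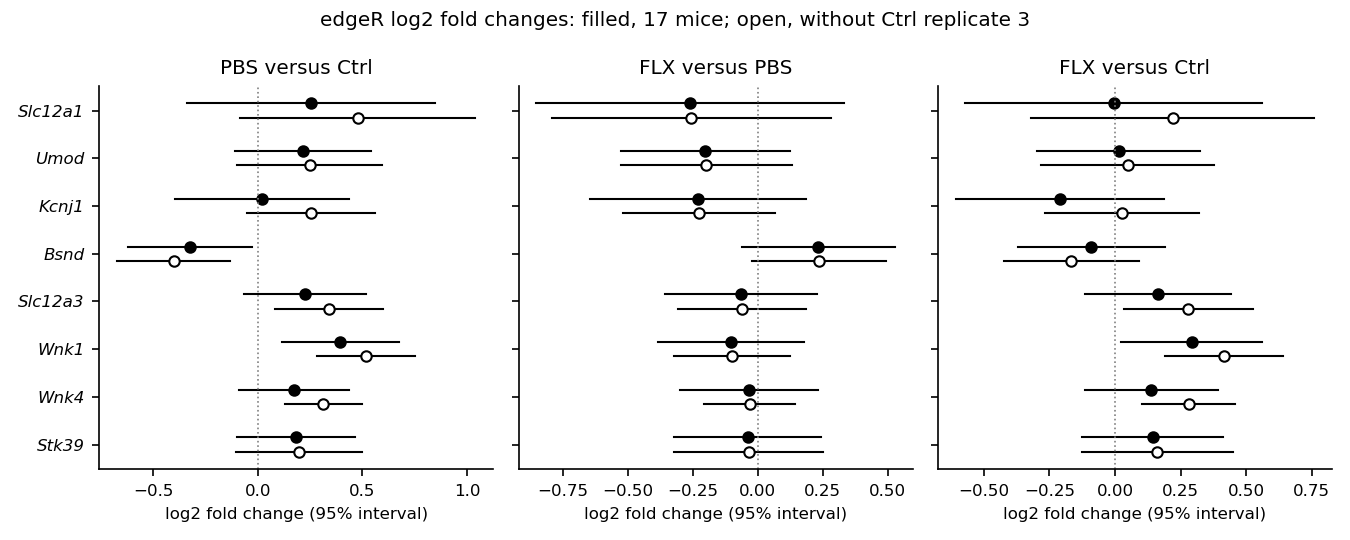
Log2 fold changes (x axis) of the 8 genes in 3 comparisons by edgeR, with 95% intervals as lines. Filled points are the fit of 17 mice and open points the fit without Ctrl replicate 3, and the open intervals of Slc12a3, Wnk1 and Wnk4 lie above 0 in both comparisons with Ctrl. The filled intervals of Wnk1 also lie above 0 there, and both intervals of Bsnd lie below 0 in PBS versus Ctrl.

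Counted over the 8 genes, 0 passed an adjusted p under 0.05 in PBS versus Ctrl by edgeR, where 3.81% of all tested genes passed (2.14% higher and 1.67% lower in PBS), and 2 of the 8, Wnk1 and Bsnd, had an unadjusted p under 0.05. In FLX versus PBS 0 of 8 passed by edgeR beside 0.726% of all genes (0.306% higher and 0.420% lower in FLX), and 0 had an unadjusted p under 0.05. In FLX versus Ctrl 0 of 8 passed by edgeR beside 3.67% of all genes (2.08% higher and 1.59% lower in FLX), and 1, Wnk1, had an unadjusted p under 0.05. DESeq2 called 1, 0 and 0 of the 8 in these comparisons, and limma on log2(FPKM + 0.1) called 0, 0 and 0. By the rule of the study, an absolute log2 fold change above 1 with an unadjusted p under 0.05, 0 of the 8 changed in any comparison by edgeR, beside 3.28%, 1.9% and 2.24% of all genes. Without Ctrl replicate 3 the calls by edgeR were 2 of 8 in PBS versus Ctrl, beside 8.27% of all genes, and 2 of 8 in FLX versus Ctrl, beside 15.4%. The share of higher genes among all calls depended on scaling. In PBS versus Ctrl it was 56.1% with edgeR's TMM factors and 41.2% with upper-quartile scaling, and in FLX versus Ctrl 56.7% and 45.2%. With limma on deposited FPKM it was 77.9% in FLX versus PBS, against 42.2% with TMM, and 81.6% in FLX versus Ctrl.

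Within a mouse, the ratio of 2 genes hardly depends on how the library was scaled. The ratio of Slc12a3 to Slc12a1, each as FPKM + 0.1, ran from 0.455 to 1.06 in Ctrl, 0.321 to 0.842 in the 5 PBS and 0.412 to 1.47 in FLX mice, and was 2.08 in PBS replicate 6. The ratio of Umod to Slc12a1 ran from 5.72 to 13.6 in Ctrl, 7.48 to 10.4 in the 5 PBS and 7.21 to 13.7 in FLX mice, and was 26.8 in PBS replicate 6, a mouse with the lowest Slc12a1 and a Umod level inside the range of the other mice. Groups overlapped in both ratios. The ratio of Wnk1 to Wnk4 was 0.406 ± 0.0308 (SD, n = 6) in Ctrl and 0.469 ± 0.0505 (SD, n = 5) in PBS mice, a log2 difference of 0.21 with a two-sided exact permutation p of 0.0476 and 0.571 after Benjamini-Hochberg adjustment over 12 tests. With all 6 PBS mice the difference was 0.27 (exact p = 0.0238, adjusted 0.286). Ctrl replicate 3 was not apart in this ratio, at 0.386. The ratio of Stk39 to Oxsr1, which encodes the related kinase OSR1, averaged 0.749 ± 0.117 (SD, n = 6) in Ctrl and 0.788 ± 0.157 (SD, n = 5) in PBS mice and had adjusted exact p-values of 0.914 to 0.970. None of the 12 tests passed after adjustment.

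**Figure D3:**
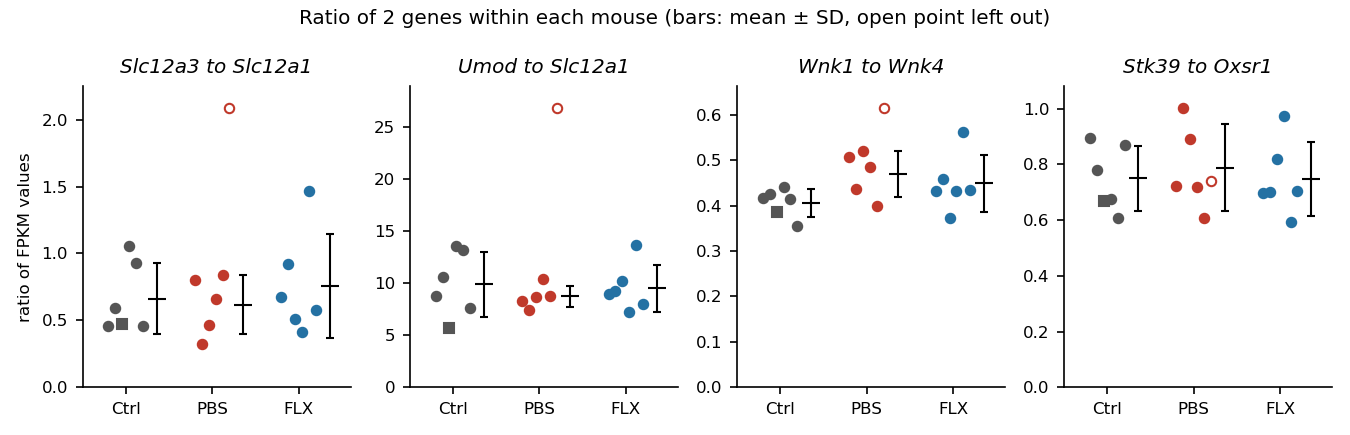
Ratio of the FPKM values of 2 genes within each mouse (y axis) in the Ctrl, PBS and FLX groups. Points are mice, the square is Ctrl replicate 3, the open circle is PBS replicate 6, and bars give the mean and SD without the open circle. PBS replicate 6 lies at 2.08 for Slc12a3 to Slc12a1 and at 26.8 for Umod to Slc12a1, above all other mice.

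Some of the 8 genes varied together across the 18 mice. Among them were Slc12a3, Wnk1 and Wnk4, with Pearson's r of log2(FPKM + 0.1) of 0.900 for Slc12a3 and Wnk1, 0.785 for Slc12a3 and Wnk4 and 0.748 for Wnk1 and Wnk4. With each mouse's median gene removed these were 0.876, 0.715 and 0.680, with group means removed 0.902, 0.732 and 0.707, and without Ctrl replicate 3 they were 0.899, 0.746 and 0.756. Among 12128 other genes with a mean of at least 1 FPKM, Wnk1 ranked number 5 for likeness to Slc12a3, but Wnk4 ranked number 220. Slc12a3 ranked number 447 and Wnk1 number 654 for likeness to Wnk4, so many genes outside the 8 were more alike to it. Umod and Stk39 had an r of 0.824, Slc12a1 and Kcnj1 0.743, Slc12a1 and Umod 0.674, and Slc12a1 and Stk39 0.640. For likeness to Slc12a1, Kcnj1 ranked number 102, Umod number 197 and Stk39 number 283. Without PBS replicate 6, Slc12a1 and Umod reached 0.833. Slc12a1 and Slc12a3 were unrelated at -0.018, and Bsnd ran against Wnk1 at -0.629 and against Slc12a3 at -0.507. These values describe whole-kidney libraries that share a total for scaling and a piece of tissue, and the proportion of each segment in that piece was not measured.

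**Figure D4:**
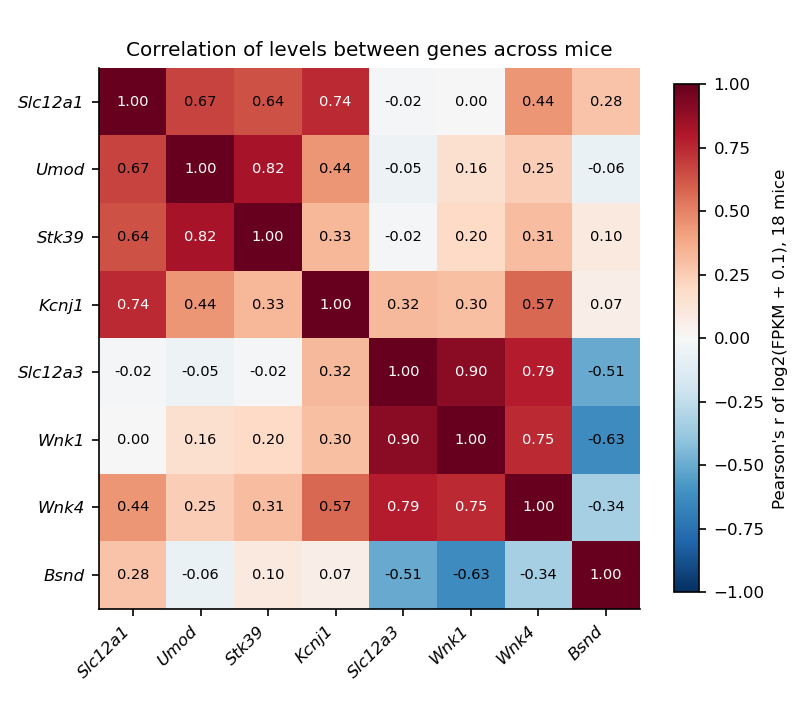
Pearson's r between the levels of each pair of the 8 genes over 18 mice, from -1 (blue) to 1 (red). Slc12a3, Wnk1 and Wnk4 lie between 0.75 and 0.90, Slc12a1, Umod and Stk39 between 0.64 and 0.82, and Bsnd is negative with Slc12a3, Wnk1 and Wnk4.

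The promoters of Slc12a3 and Wnk1 are shown because this was the pair with the highest r. The Slc12a3 window is chr8:94328958-94329257 on the + strand, and the Wnk1 window is chr6:120038606-120038905 on the - strand, on GRCm38.p6 from RefSeq. Capitals mark TATAAA, the TATA box, at base 219 of the Slc12a3 window.
Slc12a3: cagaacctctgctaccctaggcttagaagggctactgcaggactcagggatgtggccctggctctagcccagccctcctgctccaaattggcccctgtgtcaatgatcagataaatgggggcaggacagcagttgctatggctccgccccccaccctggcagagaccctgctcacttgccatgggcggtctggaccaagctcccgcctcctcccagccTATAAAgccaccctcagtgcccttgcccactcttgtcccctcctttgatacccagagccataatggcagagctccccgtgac
Wnk1: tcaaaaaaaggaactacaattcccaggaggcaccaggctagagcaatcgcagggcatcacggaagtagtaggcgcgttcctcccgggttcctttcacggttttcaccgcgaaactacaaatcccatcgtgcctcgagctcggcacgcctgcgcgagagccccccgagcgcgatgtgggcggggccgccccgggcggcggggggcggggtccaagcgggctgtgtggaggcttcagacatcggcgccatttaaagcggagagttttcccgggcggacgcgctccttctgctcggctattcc
TATAAA was found in 1 of the 7 windows and in 13.6% of all promoters. GC content was 60.3% for Slc12a3, 63.7% for Wnk1, 70.7% for Wnk4 and 80.0% for Stk39.

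The genes whose levels were most like each of the 8 were also named by r over 18 mice. For Slc12a1 they were Fa2h (0.966), Ptger3 (0.930), the prostaglandin E receptor EP3, and Tmem207 (0.918). For Slc12a3 they were Sec16a (0.926), Tmem52b (0.908) and Lrpprc (0.904), and Tmem52b was also first for Wnk1 (0.936), before Rapgef2 (0.929) and Mapre1 (0.922). For Wnk4 they were Nsd3 (0.953), Kmt2e (0.948) and Atxn2 (0.946), of which Nsd3 encodes a histone methyltransferase. Umod was followed by Cytip (0.874), Stk39 (0.824) and Gm17046 (0.790). Stk39 was followed by Twsg1 (0.894), Pla1a (0.867) and Pak6 (0.862), Kcnj1 by Nab1 (0.800), Vps37a (0.787) and Efcab14 (0.785), and Bsnd by Nit1 (0.887), Acad9 (0.875) and Trap1 (0.872), 2 of which, Acad9 and Trap1, encode mitochondrial proteins.

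Beyond the 8 genes, 51 others of the same pathways were followed, in lists of the thick ascending limb, the distal convoluted tubule, the WNK-SPAK pathway, the SLC12 family, the basolateral sodium pump and the transcription factors of these segments. In PBS versus Ctrl 6 of the 51 rose and 0 fell by edgeR, where 2.14% of all genes rose and 1.67% fell, with a median log2 fold change of 0.19 beside -0.01 over all genes tested. In FLX versus PBS 0 of 51 changed by edgeR, with a median of -0.16 and with log2 fold changes from -0.58 (Sgk1) to -0.11 (Cnnm2) for the 6, and in FLX versus Ctrl 4 rose and 0 fell beside 2.08% and 1.59% of all genes. With all 6 PBS mice the count in PBS versus Ctrl was 6 again, with Pax8 in place of Cnnm2, and without Ctrl replicate 3 it was 12 beside 8.27% of all genes. In FLX versus Ctrl 2 rose with all 6 PBS mice in the fit, and without Ctrl replicate 3 8 rose and 1, Fxyd2, fell, where 15.4% of all genes passed.

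Of the distal convoluted tubule list, 4 of 11 genes rose in PBS versus Ctrl, beside 2.14% of all genes, and the member Slc12a3 was not among them. The count was 7 of 11 without Ctrl replicate 3, beside 8.27% of all genes passing, and 3 of 11 with all 6 PBS mice. Calb1, the calcium-binding protein calbindin-D28k, averaged 64.3 ± 8.40 FPKM (SD, n = 6) in Ctrl and 123.3 ± 30.0 FPKM (SD, n = 5) in PBS mice (log2 fold change 0.95, edgeR adjusted p = 0.00354). Trpm6, the magnesium channel, rose by 0.77 (log2, edgeR adjusted p = 0.00551), and Trpv5, the calcium channel, by 0.72 (log2, edgeR adjusted p = 0.00447). Cnnm2, a magnesium transport protein, had 0.48 (edgeR adjusted p = 0.0426), a call lost in 20 of 31 other settings, where the adjusted p reached 0.138. Klk1, tissue kallikrein and the list's most abundant gene by FPKM, had a log2 fold change of 0.27 (edgeR adjusted p = 0.329). In FLX versus Ctrl mice Trpm6 rose by 0.65 (edgeR adjusted p = 0.0168) and Trpv5 by 0.52 (edgeR adjusted p = 0.0312), while Calb1 had a log2 fold change of 0.44 (edgeR adjusted p = 0.132). The call of Trpv5 there was lost in 13 of 31 other settings, among them all 6 PBS mice (edgeR adjusted p = 0.0652), and that of Trpm6 in 3 of 31, with the replicate block and with either part of the FLX group.

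Of the WNK-SPAK list, Sgk1 was the 1 of 15 genes that rose by edgeR in PBS versus Ctrl and in FLX versus Ctrl. Of all genes 2.14% and 2.08% rose in these comparisons. Without Ctrl replicate 3 the counts were 6 of 15 and 7 of 15, where 8.27% and 15.4% of all genes passed. Sgk1, the kinase induced by corticosteroids that acts on sodium transporters, ran from 9.17 through 11.4 to 21.4 FPKM in Ctrl and from 24.0 through 26.6 to 36.2 FPKM in FLX mice, and from 22.9 to 54.8 FPKM in the 5 PBS mice, so that Ctrl mice did not overlap with either stressed group. Its log2 fold change was 1.61 ± 0.23 (SE, edgeR adjusted p = 0.000694) in PBS and 1.03 ± 0.22 (SE, edgeR adjusted p = 0.0173) in FLX versus Ctrl, where the call was lost in 3 of 31 other settings, both parts of the FLX group and the fit without Ctrl replicate 5 (edgeR adjusted p = 0.0505). For FLX versus PBS it was -0.58 (edgeR adjusted p = 0.314). Hsd11b2, which inactivates glucocorticoids in aldosterone target cells, was at 0.42 (log2) in the comparison of PBS with Ctrl (edgeR adjusted p = 0.101).

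In the thick ascending limb list 0 of 15 genes passed in any comparison by edgeR, and 11 of 15 had a positive log2 fold change in PBS versus Ctrl. Among them Tmem207 had 0.44 (edgeR adjusted p = 0.549) and Ptger3 0.42 (edgeR adjusted p = 0.348). In the SLC12 family Slc12a4, the potassium chloride cotransporter KCC1, had 0.39 in FLX versus Ctrl (edgeR adjusted p = 0.0431), a call lost in 18 of 31 other settings, among them all 6 PBS mice (edgeR adjusted p = 0.230). Atp1b1, the beta subunit of the sodium pump, had 0.19 (edgeR adjusted p = 0.240) and Fxyd2, its gamma subunit, -0.05 (edgeR adjusted p = 0.875) in PBS versus Ctrl. Of 9 transcription factors Tfcp2l1 passed in PBS versus Ctrl at 0.55 (edgeR adjusted p = 0.0494), a call lost in 22 of 31 other settings. Pax8 had 0.55 (edgeR adjusted p = 0.0515).

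**Figure D5:**
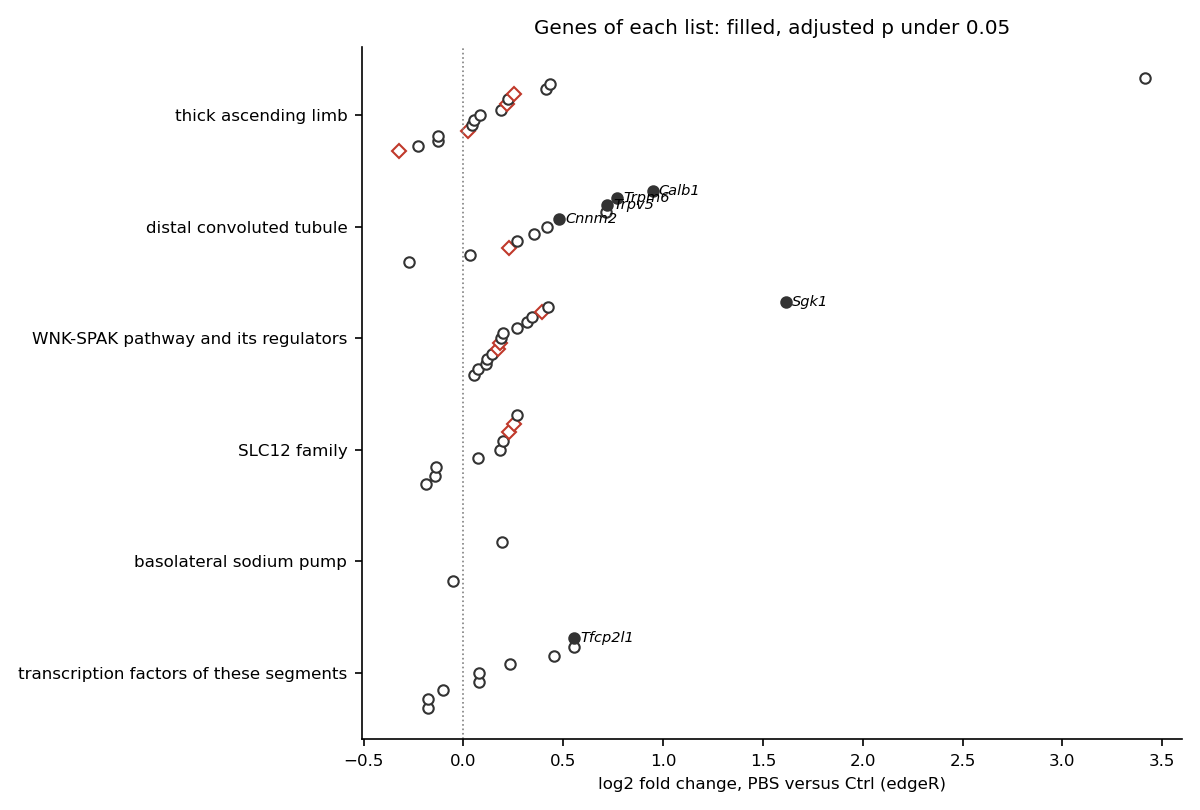
Log2 fold change of PBS versus Ctrl (x axis, edgeR, 17 mice) for each gene of 6 lists, with the 8 genes as red diamonds and the others as circles. Filled symbols have an adjusted p under 0.05 and are named, and all diamonds are open. The point at 3.41 is Cldn14, which had at most 0.0413 FPKM in Ctrl and 0.446 FPKM in PBS mice and an adjusted p of 0.164, and was named after its value was seen.

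Markers of some other cells differed between PBS and Ctrl mice. Of 7 markers of injured tubule cells, Clu and Spp1 rose in PBS versus Ctrl, where 2.14% of all genes rose. The summed level of the 7 ran from 344.9 to 594.4 FPKM in Ctrl, 635.5 to 4269 FPKM in PBS and 454.9 to 782.2 FPKM in FLX mice. Of 6 neutrophil markers 4 passed the filter on counts and were tested, and S100a8 and S100a9 rose in PBS versus Ctrl. The summed level of the 6 ran from 1.29 to 3.07 FPKM in Ctrl, 5.46 to 56.2 FPKM in PBS and 0.219 to 4.17 FPKM in FLX mice. The highest sum in both lists was that of PBS replicate 6, where Slc12a1, Kcnj1 and Bsnd were lowest. In FLX versus PBS Clu and S100a8 were lower, beside 0.42% of all genes. Of 7 principal cell markers 1, Scnn1g, rose in both PBS and FLX versus Ctrl mice, where 2.14% and 2.08% of all genes rose. In the main fit, no proximal tubule, intercalated cell, podocyte, endothelium, stroma, leukocyte or fat marker passed in PBS versus Ctrl. Flt1 of endothelium and Vcam1 of injured tubule rose in FLX versus Ctrl. With all 6 PBS mice in the fit, 0 principal cell and 0 endothelium markers passed in FLX versus Ctrl. That fit called 1 podocyte and 1 stroma marker higher in PBS versus Ctrl. Without Ctrl replicate 3, 1 podocyte and 1 stroma marker also rose in PBS versus Ctrl, beside 8.27% of all genes passing. In FLX versus Ctrl 3 podocyte and 2 endothelium markers then rose, beside 15.4% of all genes passing. All 5 fat markers had a positive log2 fold change against Ctrl in both groups, with a median of 2.46 in PBS and 2.14 in FLX, and their summed level, as median and maximum over mice, was 6.85 and 71.4 FPKM in Ctrl, 30.5 and 594.2 FPKM in PBS and 23.8 and 403.1 FPKM in FLX mice. The highest sums were those of replicate 5 in both stressed groups. All 5 podocyte markers were also positive, with medians of 0.34 and 0.31, and the stroma list had medians of 0.38 and 0.46. Of the 5 leukocyte markers 0 were positive in PBS versus Ctrl, with a median of -0.13. Medians there were 0.04 for proximal tubule, 0.03 for endothelium and -0.005 for intercalated cell markers. The neutrophil marker Ly6g was at 0 in all 6 FLX mice. The part of these cells in the values of the 8 genes was not tested.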

How the data were processed

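Bulk RNA-seq of the right kidney of 18 mice was analysed, grouped by the sample titles. Poly(A) libraries with unique molecular identifiers were sequenced as paired ends. The deposited table holds FPKM and estimated counts per gene and mouse, and per the submitters' processing notes the authors used cutadapt 1.9, HISAT2 2.0.4, UMI-tools and StringTie 1.3.4d. The study's methods name other read-trimming and alignment tools, GRCm38 as the genome and labelling of the second strand with dUTP. For the annotation release and the strand setting used in counting no source used here gives an entry. All deposited estimated counts were whole numbers, so rounding changed none. CPM divided by deposited FPKM was, at the median over mice, 1.16 times the exon union of GENCODE M21. The factor differed slightly between mice, so within a gene both units carry the same information apart from a scale per mouse.

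Counts were tested with edgeR 4.0.16 (TMM, filterByExpr, quasi-likelihood, 20251 genes, 17 mice, R 4.3.3), two-sided, with Benjamini-Hochberg adjustment over all genes at 0.05. Replicate 6 of PBS was left out, and all 6 were fitted as an alternative. Single genes and ratios were compared on log2(FPKM + 0.1) by exact two-sided permutation (SciPy 1.17.1), where the smallest p for 6 against 6 mice is 0.00216. DESeq2 1.42.0, limma 3.58.1, other scalings, filters, pseudocounts, subsets of mice and a replicate block were alternatives. Leaving out Ctrl replicate 3 together with keeping all 6 PBS mice, FLX replicates 3 to 6 alone, the longest transcript length and the removal of each mouse's median were chosen after the data were seen. The fit without Ctrl replicate 3 was 1 of 17 fits without 1 mouse. It was singled out because levels in that mouse stood apart, so it is no independent support. The labels give no cage or batch. Per the study, defeated mice stayed in divided cages beside a CD-1 mouse, while Ctrl mice were handled daily in cages of that type. Housing thus followed group. Each p-value weighs a group difference against the spread between these mice.

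Besides the 8 genes, the text names list genes with an adjusted p under 0.05 in any comparison (at most 12), each list's most abundant gene and its 2 largest changes in PBS versus Ctrl at a mean of at least 1 FPKM, and the 3 genes most like each member. The 8 genes and all lists were chosen with earlier results of these data known. A few genes of the lists are not reported here and were left out of their counts. Motifs were searched in RefSeq promoters. No column of another sample was present (0 left out).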

Additional observations from a re-analysis of the deposited data

Results flagged for a closer look

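Values were checked for a mouse whose gap to the nearest other mouse of its group exceeded Dixon's 95% critical value of 0.625 of the group's range. Over 36 groups of 6 values (8 genes and 4 ratios in 3 groups) 6 stood out, and chance gives about 1 in 20. Ctrl replicate 3 accounted for 4 of them. In that mouse Slc12a3 was 85.5 FPKM, where the other Ctrl mice lay between 50.3 and 60.1 FPKM, and Kcnj1 was 33.8 FPKM, where the others lay between 13.3 and 19.0 FPKM. Wnk1 was 14.3 FPKM against 8.43 to 9.10 FPKM, and Wnk4 was 37.1 FPKM against 20.3 to 24.0 FPKM. PBS replicate 6 stood out in the ratio of Slc12a3 to Slc12a1, at 2.08 against 0.321 to 0.842 in the other PBS mice, and in the ratio of Umod to Slc12a1, at 26.8 against 7.48 to 10.4.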

How the results depend on the processing

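Of 744 alternative values for the log2 fold changes of the 8 genes, 680 kept their direction and their side of the threshold, 8 passed it newly, all of Wnk1 or Wnk4 against Ctrl, and 56 turned direction, none of them past the threshold in the main analysis. The newly passing values came from fits without Ctrl replicate 3, apart from Wnk1 with DESeq2. Of 1302 such values of the other named genes 79 lost the call, 16 gained it and 13 turned direction. Sgk1, Calb1, Trpv5 and Trpm6 passed in PBS versus Ctrl under every alternative run, with a highest adjusted p of 0.0332, for Trpm6. Deviations of mice with the same replicate number correlated between -0.221 and 0.225. Mice with different numbers were not compared, so these values cannot decide whether the numbers pair mice. The block on replicate number left 0 of the 8 genes called. The cause of the differences between settings was not tested. FLX replicates 3 to 6 had the lower depth. The number of all genes called in FLX versus Ctrl, 744 in the main analysis, was 1615 with DESeq2, 354 with all 6 PBS mice, 2103 with all 6 PBS mice and without Ctrl replicate 3, 378 without the filter on low counts, 4 with FLX replicates 1 and 2 alone, 179 with FLX replicates 3 to 6 alone, 258 with the replicate block, 1292 with limma at pseudocount 1 and 271 to 3099 when 1 mouse was left out. The number of all genes called in FLX versus PBS, 147 in the main analysis, was 498 with DESeq2, 88 without the filter on low counts, 0 with FLX replicates 1 and 2 alone, 38 with FLX replicates 3 to 6 alone, 95 with only the groups compared, 67 with the replicate block, 311 with limma at pseudocount 1 and 47 to 250 when 1 mouse was left out. The number of the 8 genes called in PBS versus Ctrl, 0 in the main analysis, was 1 with DESeq2, 2 with all 6 PBS mice and without Ctrl replicate 3 and 0 to 2 when 1 mouse was left out. The number of all genes called in PBS versus Ctrl, 772 in the main analysis, was 1413 with DESeq2, 1724 with all 6 PBS mice and without Ctrl replicate 3, 496 with only the groups compared, 419 with the replicate block and 388 to 1662 when 1 mouse was left out. The number of the 8 genes called in FLX versus Ctrl, 0 in the main analysis, was 1 with all 6 PBS mice and without Ctrl replicate 3 and 0 to 2 when 1 mouse was left out.

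Values that turned direction follow, as log2 fold changes. Slc12a1 in FLX versus Ctrl, -0.0053 in the main analysis, was 0.0007 with DESeq2, 0.21 with all 6 PBS mice and without Ctrl replicate 3, 0.079 with FLX replicates 3 to 6 alone, 0.0043 with the replicate block, 0.0007 with RLE size factors, 0.10 with limma at pseudocount 0.01, 0.10 at 0.1, 0.10 at 0.1 without a filter, 0.10 with limma at pseudocount 1 and -0.15 to 0.22 when 1 mouse was left out. Slc12a3 in FLX versus PBS, -0.064 in the main analysis, was 0.049 with limma at pseudocount 0.01, 0.049 at 0.1, 0.049 at 0.1 without a filter, 0.048 with limma at pseudocount 1 and -0.14 to 0.052 when 1 mouse was left out. Umod in FLX versus Ctrl, 0.015 in the main analysis, was -0.15 with FLX replicates 1 and 2 alone, -0.0039 with the replicate block, -0.014 with upper-quartile scaling and -0.040 to 0.093 when 1 mouse was left out. Kcnj1 in PBS versus Ctrl, 0.021 in the main analysis, was -0.074 with all 6 PBS mice, -0.023 with upper-quartile scaling and -0.10 to 0.25 when 1 mouse was left out. Kcnj1 in FLX versus Ctrl, -0.21 in the main analysis, was 0.022 with all 6 PBS mice and without Ctrl replicate 3 and -0.29 to 0.028 when 1 mouse was left out. Bsnd in FLX versus Ctrl, -0.09 in the main analysis, was 0.019 with limma at pseudocount 0.01, 0.018 at 0.1, 0.018 at 0.1 without a filter, 0.017 with limma at pseudocount 1 and -0.17 to 0.013 when 1 mouse was left out. Wnk4 in FLX versus PBS, -0.035 in the main analysis, was 0.012 with FLX replicates 1 and 2 alone, 0.065 with limma at pseudocount 0.01, 0.065 at 0.1, 0.065 at 0.1 without a filter, 0.063 with limma at pseudocount 1 and -0.10 to 0.025 when 1 mouse was left out. Stk39 in FLX versus PBS, -0.04 in the main analysis, was 0.017 with FLX replicates 3 to 6 alone, 0.052 with limma at pseudocount 0.01, 0.051 at 0.1, 0.051 at 0.1 without a filter, 0.045 with limma at pseudocount 1 and -0.12 to 0.048 when 1 mouse was left out. Slc12a4 in FLX versus PBS, 0.13 in the main analysis, was -0.10 with all 6 PBS mice and -0.10 with all 6 PBS mice and without Ctrl replicate 3. Tmem207 in FLX versus Ctrl, -0.017 in the main analysis, was 0.046 with all 6 PBS mice and without Ctrl replicate 3, 0.018 with FLX replicates 3 to 6 alone, 0.016 with limma at pseudocount 1 and -0.15 to 0.18 when 1 mouse was left out. Klk1 in FLX versus Ctrl, -0.10 in the main analysis, was 0.067 with FLX replicates 1 and 2 alone. Hsd11b2 in FLX versus PBS, -0.16 in the main analysis, was 0.051 with FLX replicates 1 and 2 alone. Fxyd2 in PBS versus Ctrl, -0.054 in the main analysis, was -0.15 to 0.025 when 1 mouse was left out.

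The log2 differences of ratios that turned direction had adjusted exact p-values of 0.571 or more in the main analysis. Slc12a3 to Slc12a1 in PBS versus Ctrl differed by -0.096 in the main analysis and by 0.21 with all 6 PBS mice and -0.23 to 0.12 when 1 mouse was left out. Slc12a3 to Slc12a1 in FLX versus PBS differed by 0.25 in the main analysis and by -0.054 with all 6 PBS mice. Umod to Slc12a1 in PBS versus Ctrl differed by -0.13 in the main analysis and by 0.14 with all 6 PBS mice. Umod to Slc12a1 in FLX versus PBS differed by 0.10 in the main analysis and by -0.17 with all 6 PBS mice and -0.0052 to 0.18 when 1 mouse was left out. Slc12a3 to Slc12a1 in FLX versus Ctrl differed by 0.16 in the main analysis and by -0.059 to 0.31 when 1 mouse was left out. Umod to Slc12a1 in FLX versus Ctrl differed by -0.023 in the main analysis and by -0.17 to 0.081 when 1 mouse was left out. Stk39 to Oxsr1 in PBS versus Ctrl differed by 0.064 in the main analysis and by -0.028 to 0.15 when 1 mouse was left out. Stk39 to Oxsr1 in FLX versus PBS differed by -0.07 in the main analysis and by -0.16 to 0.022 when 1 mouse was left out. Stk39 to Oxsr1 in FLX versus Ctrl differed by -0.0059 in the main analysis and by -0.085 to 0.058 when 1 mouse was left out.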
